A study of Rattus norvegicus with 18 samples.

Results

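The nuclear-encoded subunits of the oxidative phosphorylation machinery were followed across 3 lines of rats in RNA sequencing of whole hippocampus. Members were taken by gene symbol: Ndufa, Ndufb, Ndufc, Ndufs and Ndufv with a number (without the Ndufaf assembly factors), Sdha to Sdhd, and symbols opening with Uqcr, Cox4 to Cox8, or Atp5. This gave 85 of the 20909 measured genes, with 39 in complex I, 4 in complex II, 8 in complex III, 16 in complex IV and 18 in complex V. The rule uses names only and no measured value, but it was chosen with earlier results of these data known.

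The bHR rats (bred high responders) and bLR rats (bred low responders) came from generation 37 of lines selected for high or low locomotor activity in a new environment. The bIR rats (bred intermediate responders) were obtained by crossing bHR with bLR rats of that generation. All were adult males, with 6 rats per line and 1 library per rat. The bHR and bLR rats were killed at ages P160-P167 and the bIR rats at P126-134 (postnatal days), so line and age cannot be told apart in any comparison with bIR. Locomotor scores ran from 2079 to 2501 in bHR, from 323 to 886 in bIR and from 20 to 44 in bLR. No allele, drug or surgery is named in the labels, and they give no litter, lane or extraction batch.

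Oxidative phosphorylation takes electrons from NADH at complex I and from succinate at complex II, passes them through ubiquinone, complex III and cytochrome c to oxygen at complex IV, and uses the resulting proton gradient to make ATP at complex V. Each complex except complex II joins subunits made from mitochondrial DNA to a larger number made from nuclear genes, which are the ones described here. Some nuclear subunits carry the redox centres or the catalytic sites, and many others are accessory subunits that help to build and hold the complex. In the hippocampus this machinery supplies most of the ATP that neurons spend on ion pumping and synaptic transmission. The mitochondrially encoded subunits were not analysed here.

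Libraries held 31.1 to 66.6 M counted reads, on average 39.2 M for bHR, 45.5 M for bIR and 48.7 M for bLR. Levels are given as FPM, fragments per M counted fragments, which are not divided by gene length, so they are compared between rats and not between genes. Hippocampal markers (10 of 10 measured, among them Prox1 and Zbtb20) were present in every line, with summed levels of 748 to 1064 FPM (bHR), 898 to 1124 FPM (bIR) and 928 to 1098 FPM (bLR). The 12 neuronal markers summed to 8022 to 9944 FPM (bHR), 8856 to 10034 FPM (bIR) and 9495 to 10341 FPM (bLR), and 12 of 12 had a lower mean in bHR than in bLR, with 0 called. The 10 astrocyte markers had a higher mean in bHR than in bLR in 10 of 10 and the ependymal ones in 8 of 8, with 0 called. Blood markers were lower in bHR in 5 of 5 and endothelial ones in 6 of 8, with 0 called, and microglial markers in 9 of 10, with C1qb called (-0.42, limma adjusted p = 0.0382). Of the 7 thalamus and habenula markers Tnnt1 was called, lower in bHR (-3.24, limma adjusted p = 0.00316), and the other lists (interneuron, oligodendrocyte, choroid plexus, muscle) gave 0 calls. Over all genes 0.445% were called between bHR and bLR. The part of these markers in the members' levels was not tested. Choroid plexus markers (12 of 12 measured) varied most between rats, with sums of 330 to 5357 FPM (bHR), 397 to 16863 FPM (bIR) and 355 to 2503 FPM (bLR). In such bulk RNA, fewer cells of a type and less RNA per cell cannot be told apart.

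Between bHR and bLR, the breeding contrast of the study, levels of oxidative phosphorylation genes lay close together. With limma and Benjamini-Hochberg adjustment over all 20909 genes, 0 of the 85 genes had an adjusted p under 0.05, against 0.445% of all genes. Before adjustment, 3 genes (1 higher and 2 lower in bHR) had p under 0.05, which is 3.53% of them, against 9.36% of all genes. With precision weights from the recovered reads (voom), 0 were called as well, and 2 had an unadjusted p under 0.05. The rats of bHR and bLR did not separate for any of the 85 genes, against 0.909% of all genes without overlap. The median difference was 0.021 on the log2 scale (all genes: -0.002), with 51 genes higher and 34 lower in bHR. Without rat HR_2 it was -0.020, with 28 higher and 57 lower, and without rat LR_44 it was -0.006, with 39 higher and 46 lower. That split moved with the scaling of the libraries: 60.0% of the genes were higher in bHR as deposited, 51.8% after centring each library on its median and 74.1% after quantile normalization.

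The precision sets what such a result can show. The 95% interval of the difference between bHR and bLR lay within a 1.25-fold change either way for 55 of the 85 genes, and within 1.5-fold for 77. Its median half-width was 0.22 on the log2 scale, from 0.11 for Ndufs1 to 1.48 for Cox7b2. Larger differences are therefore bounded for most of the highly expressed subunits, and not for the weakly expressed tissue isoforms of complex IV.

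**Figure D1:**
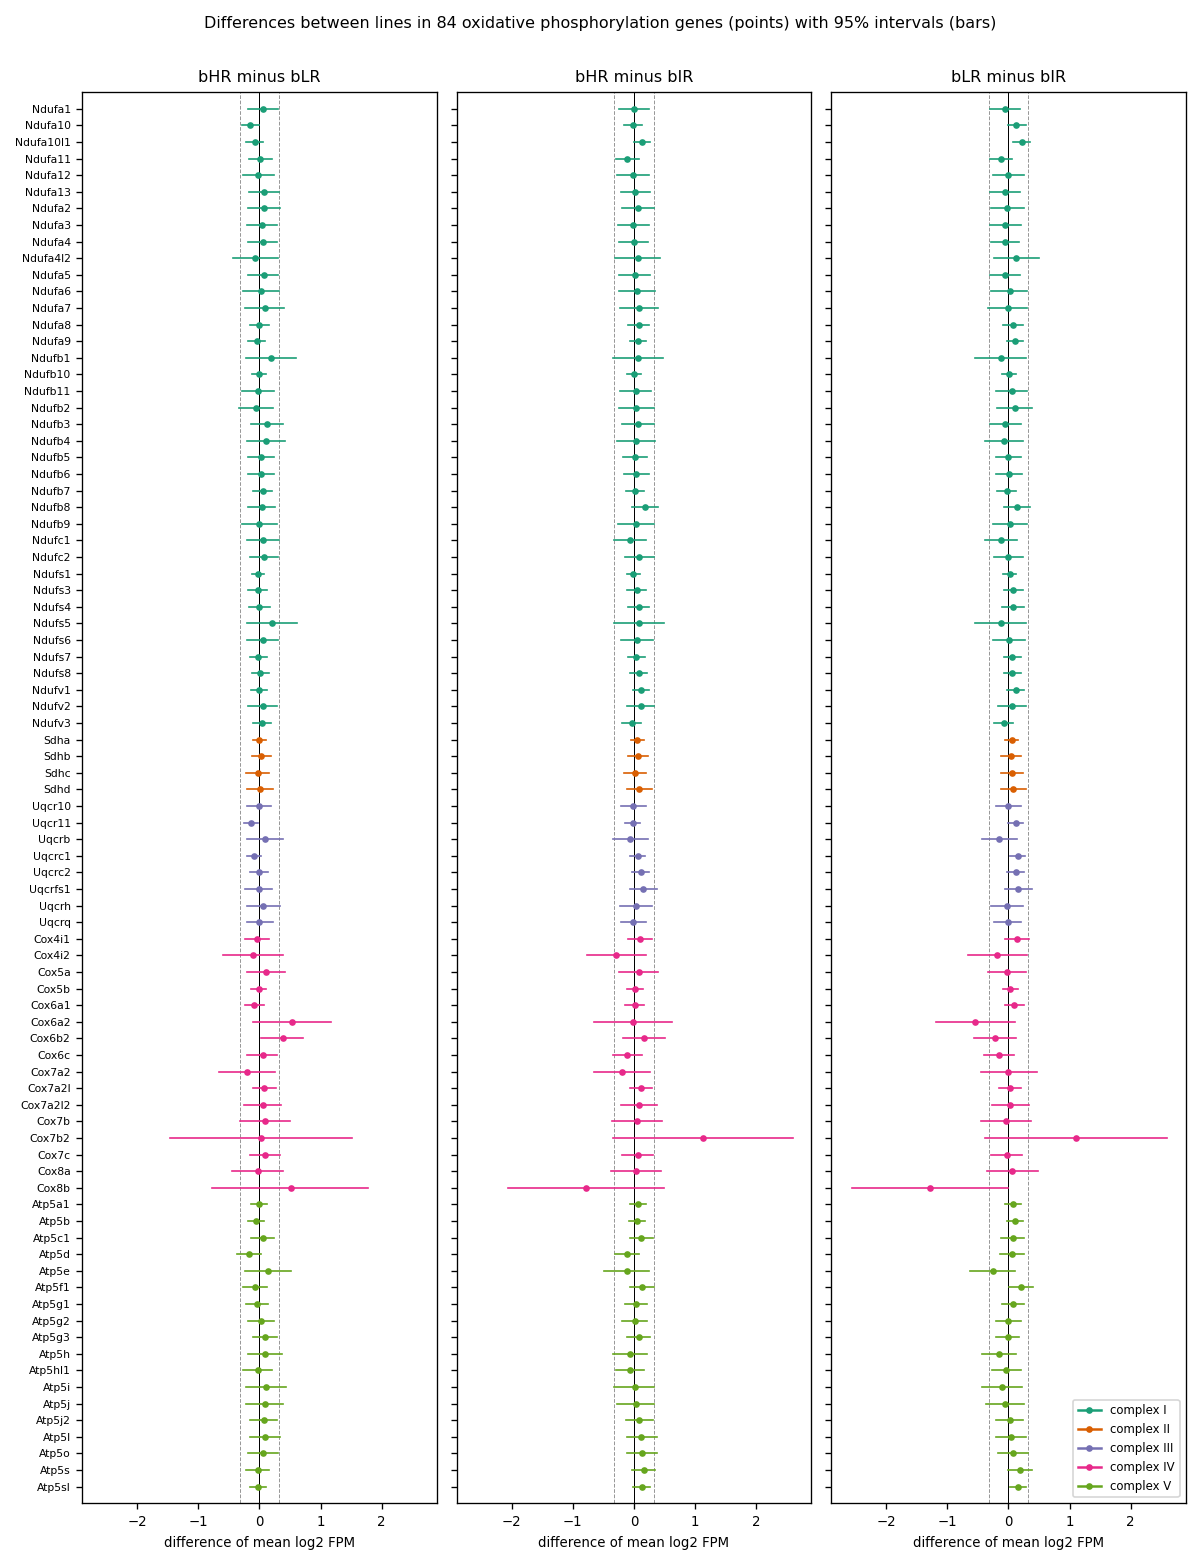
Difference of mean log2 FPM between 2 lines for 84 of the 85 genes, in 3 panels (bHR minus bLR, bHR minus bIR, bLR minus bIR); points are estimates from limma with n = 6 rats per line, bars are 95% intervals, colours are complexes, and dashed lines mark a 1.25-fold change. Most points sit inside the dashed lines, and the wide bars belong to Cox7b2, Cox8b and Cox6a2.

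Complex I, the NADH dehydrogenase, gave 26 genes higher and 13 lower in bHR than in bLR, with a median of 0.028 and a range from -0.15 (Ndufa10) to 0.21 (Ndufs5). Ndufs1 carries iron-sulfur clusters of the electron input arm and was the least variable gene of the 85, with an SD between rats of a line of 0.067 log2 units. Its levels ran from 247 to 277 FPM in bHR (median 263), from 248.5 to 278 in bIR (median 265) and from 245 to 280 in bLR (median 269). The lines shared almost the same range, and the difference between bHR and bLR was -0.03 with a 95% interval of -0.13 to 0.08. Ndufv1 binds the flavin that accepts electrons from NADH. It ran from 147 to 187 FPM in bHR (median 162), from 141 to 156 in bIR (median 151) and from 148.7 to 184 in bLR (median 158.5). The bIR rats lay low beside both other lines, and IR_213 lay below every rat of them, with a difference of -0.12 from the midpoint of bHR and bLR (SE 0.06, unadjusted p = 0.0512, limma adjusted p = 0.882).

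Accessory subunits of complex I varied more. Ndufs5, an accessory subunit on the intermembrane side, ran from 32.8 to 87.7 FPM in bHR (median 60.6), from 43.8 to 74.4 in bIR (median 50.1) and from 35.7 to 81.0 in bLR (median 46.3). Its SD between rats of a line was 0.399 log2 units, and the ranges of the lines overlapped almost fully. The difference between bHR and bLR was 0.21 with a 95% interval of -0.20 to 0.62 (limma adjusted p = 0.823). Ndufb1, a small membrane-arm subunit, differed by 0.19 (SE 0.20) and Ndufb3, another of that arm, by 0.12 (SE 0.13). Ndufa11, an accessory subunit that touches complex III in supercomplexes, had means of 60.0 ± 7.66 FPM (bHR), 64.5 ± 6.46 FPM (bIR) and 59.3 ± 6.06 FPM (bLR) (SD, n = 6). Its difference between bHR and bIR was -0.11 as fitted and 0.02 without the 4 rats of highest choroid plexus signal (HR_38, IR_213, IR_248 and IR_261).

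Ndufa10 and Ndufa10l1 are near-identical copies of the same accessory subunit, so how reads were divided between them is uncertain. Ndufa10 ran from 65.5 to 85.8 FPM in bHR (median 77.6), from 70.1 to 81.8 in bIR (median 77.4) and from 78.8 to 88.6 in bLR (median 84.7). Of the bLR rats, 3 lay above every bHR rat (LR_8, LR_16 and LR_48) and the other 3 within the bHR range, with a difference of -0.15 between bHR and bLR (SE 0.07, unadjusted p = 0.0415, limma adjusted p = 0.510). Ndufa10l1 ran from 102 to 128 FPM in bHR (median 108), from 98.1 to 104 in bIR (median 102) and from 102 to 131 in bLR (median 117). The 6 bIR rats sat together at the low end, and bLR exceeded bIR by 0.22 (SE 0.06, unadjusted p = 0.00283, limma adjusted p = 0.480), the smallest unadjusted p of the 85 genes in that contrast. The summed level of the 2 copies was 188 ± 14.5 FPM (bHR), 178 ± 4.35 FPM (bIR) and 202 ± 12.4 FPM (bLR) (SD, n = 6).

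Ndufa4, counted here with complex I by its symbol but now regarded as a complex IV subunit, ran from 215 to 338 FPM (bHR), from 227 to 340 FPM (bIR) and from 231 to 350 FPM (bLR). Its paralog Ndufa4l2, known as a hypoxia-responsive gene of mural cells of blood vessels, rested on 76 to 160 reads per library. It ran from 1.50 to 3.22 FPM in bHR (median 2.55), from 1.62 to 2.81 in bIR (median 2.43) and from 1.94 to 2.92 in bLR (median 2.64). Neither gene separated the lines, with differences between bHR and bLR of 0.05 (SE 0.11) for Ndufa4 and -0.07 (SE 0.18) for Ndufa4l2.

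Complex II, the succinate dehydrogenase that also serves the tricarboxylic acid cycle, had the narrowest range of the 5 complexes between bHR and bLR. Its differences ran from -0.03 (Sdhc) to 0.03 (Sdhb). It held only 4 genes, against 8 to 39 in the other complexes, and a range over fewer genes tends to be narrower. Sdha, the flavin subunit that oxidizes succinate, ran from 299 to 321 FPM in bHR (median 315), from 283 to 313 in bIR (median 302) and from 286 to 342 in bLR (median 311). Sdhb, the iron-sulfur subunit, ran from 96.5 to 136 FPM in bHR (median 117), from 103 to 123 in bIR (median 109) and from 104 to 136 in bLR (median 110). The membrane anchors that hold the ubiquinone site also had their lowest mean in bIR, with Sdhc at 165 ± 17.9, 163 ± 20.8 and 169 ± 18.2 FPM and Sdhd at 186 ± 23.0, 176 ± 26.8 and 185 ± 24.3 FPM in bHR, bIR and bLR (SD, n = 6). The bIR mean thus lay below the midpoint of the other lines for 4 of 4 subunits, by -0.03 in Sdhc to -0.08 in Sdhd, with 0 of 4 called.

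In complex III, which moves electrons from ubiquinol to cytochrome c, 3 genes were higher and 5 lower in bHR than in bLR (median -0.006). Uqcr11, a small accessory subunit, ran from 196 to 230 FPM in bHR (median 211), from 201 to 227 in bIR (median 215) and from 218 to 248.1 in bLR (median 234). Most bLR rats lay above most bHR rats, and 2 bHR rats reached the bLR range. The difference was -0.14 with a 95% interval of -0.26 to -0.02 (unadjusted p = 0.0220, limma adjusted p = 0.416), the smallest p of the 85 genes between bHR and bLR. Uqcrc1, a core structural subunit related to matrix processing peptidases, ran from 171 to 202 FPM in bHR (median 182), from 163 to 187 in bIR (median 175) and from 178 to 210 in bLR (median 192). Its difference was -0.09 between bHR and bLR (SE 0.06), and bLR lay above bIR by 0.15 (SE 0.06, unadjusted p = 0.0178, limma adjusted p = 0.616). Uqcrfs1, the Rieske iron-sulfur protein, had means of 154 ± 22.5, 139 ± 16.9 and 155 ± 24.4 FPM in bHR, bIR and bLR (SD, n = 6).

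Complex IV, cytochrome c oxidase, held the widest range, from -0.20 (Cox7a2) to 0.53 (Cox6a2) between bHR and bLR. Several of its subunits exist as tissue isoforms, some of which are weakly expressed in brain. The ubiquitous Cox4i1 ran from 551 to 724 FPM (bHR), from 491 to 688 FPM (bIR) and from 549 to 805 FPM (bLR), and differed by -0.04 (SE 0.10) between bHR and bLR. Cox4i2, the isoform of lung and of mural cells, had medians of 0.729, 0.992 and 0.742 FPM in bHR, bIR and bLR. Its difference between bHR and bIR was -0.29 (SE 0.23), on 18 to 71 reads per library. Cox6a1, the general isoform, was at 391 ± 28.5, 389 ± 24.5 and 417 ± 49.3 FPM in bHR, bIR and bLR (SD, n = 6).

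Cox6a2, the heart and muscle isoform that in brain is known from parvalbumin interneurons, rested on 16 to 55 reads per library. It ran from 0.591 to 1.75 FPM in bHR (median 0.813), from 0.519 to 1.48 in bIR (median 0.955) and from 0.469 to 0.906 in bLR (median 0.602). Most bLR rats lay low beside the other lines, 3 of them below every bHR rat, and bHR exceeded bLR by 0.53 with a 95% interval of -0.11 to 1.17 (unadjusted p = 0.102, limma adjusted p = 0.646). The highest value of all was that of rat HR_2, and without it the difference was 0.33. Interneuron markers (8 of 8 measured) had sums of 786 to 897 FPM in bHR and 733 to 873 in bLR, and their part in the Cox6a2 levels was not tested. Cox6b2, known as the testis isoform, ran from 2.77 to 5.21 FPM in bHR (median 3.00), from 2.42 to 3.71 in bIR (median 2.88) and from 2.08 to 3.16 in bLR (median 2.59). It was higher in bHR than in bLR by 0.38 with a 95% interval of 0.03 to 0.72 (unadjusted p = 0.0342, limma adjusted p = 0.480), and by 0.25 without HR_38, the rat with 5.21 FPM. Its general counterpart Cox6b1 was not analysed here, nor was the muscle isoform Cox7a1.

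Cox8b, another heart and muscle isoform, had the largest spread among genes with a mean log2 level of at least 0, with an SD between rats of a line of 1.24 log2 units. It ran from 1.02 to 3.21 FPM in bHR (median 1.84), from 0.985 to 15.2 in bIR (median 2.48) and from 0.583 to 2.99 in bLR (median 1.28). Rats IR_213 at 14.5 FPM and IR_261 at 15.2 FPM stood far above the other 16. The same 2 rats had the highest levels of transthyretin (Ttr), the main secreted protein of choroid plexus, at 11994 and 13406 FPM. Rats HR_38 (Ttr 4172 FPM, Cox8b 3.21 FPM) and IR_248 (Ttr 3397 FPM, Cox8b 3.83 FPM) came next in both genes. Relative to the mean of all 18 rats, the choroid plexus markers averaged 3.64 and 3.69 on the log2 scale in IR_213 and IR_261, and the 6 measured muscle markers 0.39 and 0.01. The muscle markers summed to 20.9 to 22.9 FPM (bHR), 20.7 to 26.1 FPM (bIR) and 23.8 to 27.5 FPM (bLR). The difference of Cox8b between bLR and bIR was -1.29 as fitted (SE 0.61, unadjusted p = 0.0479, limma adjusted p = 0.683) and 0.30 without the 4 rats of highest Ttr. Between bHR and bIR it was -0.78 as fitted and 0.64 without these 4 rats. With the choroid plexus markers as a covariate it was 0.12 between bHR and bIR and still negative, -0.32, between bLR and bIR. The general isoform Cox8a, at 153 to 238 FPM (bHR), 134 to 218 FPM (bIR) and 93.0 to 260.9 FPM (bLR), did not share the high values of IR_213 and IR_261 (175 and 136 FPM).

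**Figure D2:**
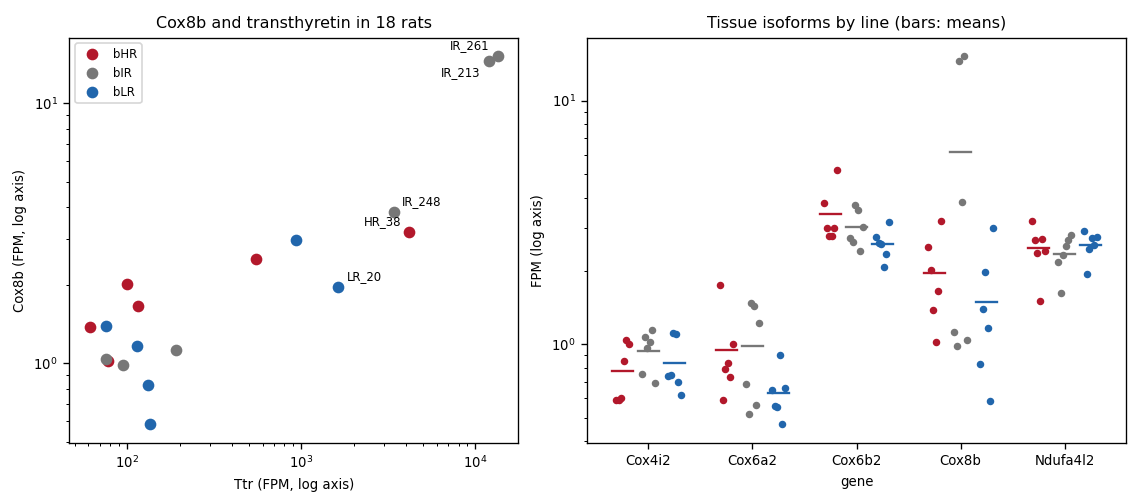
Left, Cox8b against Ttr in each of the 18 rats, both in FPM on log axes and coloured by line, with IR_213 and IR_261 at the top right (14.5 and 15.2 FPM of Cox8b). Right, FPM on a log axis of 5 tissue isoforms in each rat by line, with bars at the line means; the lines overlap in all 5.

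Cox7a2, a small subunit of the liver type, has a copy in Cox7a2l2, and how reads were divided between them is uncertain. Cox7a2 ran from 6.63 to 18.1 FPM in bHR (median 13.3), from 11 to 16.5 in bIR (median 14.9) and from 8.40 to 22.8 in bLR (median 15.5). The summed level of Cox7a2 and Cox7a2l2 was 426 ± 89.5 FPM (bHR), 404 ± 75.0 FPM (bIR) and 415 ± 96.7 FPM (bLR) (SD, n = 6). Cox7a2l, known as a supercomplex assembly factor, was at 272 ± 29.9, 252 ± 29.1 and 257 ± 30.3 FPM. Cox6c, a small accessory subunit, differed from the midpoint by 0.13 in bIR (SE 0.10). Cox7b2, known from testis, was at 0 to 17 reads per library, and a difference between bHR and bLR was not detectable at this depth and spread (95% interval -1.46 to 1.51).

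Complex V, the ATP synthase, had 10 genes higher and 8 lower in bHR than in bLR (median 0.036). The subunits alpha and beta form its catalytic head. Atp5a1 (alpha) ran from 648 to 780 FPM in bHR (median 680), from 642 to 696 in bIR (median 654) and from 612 to 776 in bLR (median 689). Atp5b (beta) ran from 1179 to 1417 FPM in bHR (median 1269), from 1199 to 1311 in bIR (median 1233) and from 1213 to 1435 in bLR (median 1349). Both lay within the spread of each line, with differences between bHR and bLR of -0.01 (95% interval -0.14 to 0.12) and -0.06 (-0.19 to 0.08). In the central stalk, Atp5d (delta) ran from 106 to 183 FPM in bHR (median 132) and from 135 to 174 in bLR (median 148.8), a difference of -0.17 (SE 0.10, unadjusted p = 0.0954, limma adjusted p = 0.638). Atp5e (epsilon), its neighbour in that stalk, differed by 0.14 between bHR and bLR (SE 0.18) and by -0.26 between bLR and bIR (SE 0.18). Atp5f1, the stator subunit b, was at 160 ± 16.4, 147 ± 19.5 and 169 ± 22.8 FPM in bHR, bIR and bLR (SD, n = 6), with bLR above bIR by 0.20 (SE 0.09, unadjusted p = 0.0413, limma adjusted p = 0.666).

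Subunit c, which forms the rotating ring, is made from 3 nuclear genes that give the same mature protein. Atp5g1 was at 75.0 ± 5.03 FPM (bHR), 73.5 ± 8.56 FPM (bIR) and 77.5 ± 10.5 FPM (bLR). Atp5g2 was at 137 ± 16, 135 ± 17.6 and 135 ± 20.8 FPM, and Atp5g3 at 299 ± 38.7, 283 ± 31.0 and 281 ± 36.2 FPM (SD, n = 6). The differences between bHR and bLR were -0.04 (SE 0.09), 0.02 (SE 0.10) and 0.09 (SE 0.09), so no change in the use of the 3 genes was detectable. Atp5h and its copy Atp5hl1, whose reads are likewise hard to divide, summed to 48.5 ± 9.15 FPM (bHR), 50.3 ± 5.39 FPM (bIR) and 45.7 ± 6.00 FPM (bLR) (SD, n = 6).

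Atp5s and Atp5sl carry the family name but are not subunits of the enzyme: Atp5s is known as coupling factor B, and Atp5sl as a factor for complex I assembly. Atp5s ran from 20.8 to 24.4 FPM in bHR (median 22.1), from 17.3 to 23.3 in bIR (median 19.7) and from 18.1 to 25.5 in bLR (median 23.6). Atp5sl ran from 40.8 to 53.2 FPM in bHR (median 47.6), from 40.1 to 45.7 in bIR (median 44.0) and from 43.6 to 51.8 in bLR (median 48.5). Both were lowest in bIR, with differences from the midpoint of -0.18 (SE 0.08, unadjusted p = 0.0359) and -0.14 (SE 0.06, unadjusted p = 0.0217), and limma adjusted p of 0.882 for each.

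In the comparisons with the cross-bred bIR rats, 0 of the 85 genes were called against bHR (all genes: 0.00957%), 0 against bLR (all genes: 0%) and 0 against the midpoint of both (all genes: 0.00478%). Before adjustment, limma gave p under 0.05 for 0 genes against bHR (all genes: 5.81%), for 7 against bLR, 6 of them higher in bLR (all genes: 7.29%), and for 3 against the midpoint, all lower in bIR (all genes: 5.63%). With voom weights the 3 counts of calls were also 0, and the unadjusted counts 0, 6 and 3. Rats of 2 lines never separated for a member, against 0.268% of all genes for bHR with bIR and 0.507% for bLR with bIR. The bIR mean was the lowest of the 3 lines for 43 of the 85 genes (50.6%, all genes 30.0%) and the highest for 17 (20.0%, all genes 33.0%). The median member lay -0.032 from the midpoint on the log2 scale, with 57 genes below it and 28 above (all genes: median 0.007). These comparisons share rats with each other and with the breeding contrast. Without rat LR_48 the median was 0.000, with 43 genes below the midpoint and 42 above.

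The low position of bIR was even among 10 subunits that carry flavin or iron-sulfur clusters or make the catalytic head of complex V (Ndufs1, Ndufs7, Ndufs8, Ndufv1, Ndufv2, Sdha, Sdhb, Uqcrfs1, Atp5a1 and Atp5b). This grouping by textbook role was made after the values were seen, so it carries no test. Of the 10, 10 had a lower mean in bIR than in bLR, 9 a lower mean than in bHR and 10 lay below the midpoint, with a median of -0.070. The differences were small, from -0.01 (Ndufs1) to -0.15 (Uqcrfs1), and 0 of 10 were called in any contrast. Between bHR and bLR the same 10 had a median of -0.007, with 3 higher and 7 lower, and all 10 intervals lay within a 1.25-fold change. The core subunits Ndufs3, Sdhc and Sdhd, also lay below the midpoint in 3 of 3. Across the 33 alternative analyses 9 or 10 of the 10 stayed below the midpoint, with medians from -0.106 to -0.055. These analyses refit the same rats, or most of them, so their agreement is no separate evidence.

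Within lines the genes of all 5 complexes moved together from rat to rat. Among the 78 members with a mean log2 level of at least 3, rat HR_2 had the highest level of its line for 59, IR_248 for 60 and LR_48 for 62. In 52 genes all 3 rats were the highest of their lines, and the share over all genes for all 3 together is not reported here. The 3 rats were picked out after the values were seen, so these counts carry no test. Over all 11275 genes with such a mean level, these rats were the highest of their line in 27.4%, 24.5% and 29.9%. They were also the lowest of their line in 29.6%, 33.2% and 34.1% of these genes, against 1, 2 and 1 of the 78 members. At the other end, HR_26 was the lowest bHR rat for 48 of the 78 members, against 22.7% of the 11275 genes. It was the highest bHR rat for 9 members, against 29.1% of the 11275 genes. On the log2 scale, relative to the mean of all 18 rats, the members averaged 0.26 in HR_2, 0.21 in IR_248 and 0.31 in LR_48, and -0.19 in HR_26. The member mean was 0.02 ± 0.16 in bHR and -0.02 ± 0.13 in bIR (SD, n = 6), so the spread between rats of a line exceeded the distance between these lines.

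Some other gene groups of protein synthesis and mitochondria moved with the members in these rats, and others did not. Cytosolic ribosomal proteins (105 genes) averaged 0.35, 0.33 and 0.41 in HR_2, IR_248 and LR_48 and -0.38 in HR_26. Mitochondrial ribosomal proteins (76 genes) averaged 0.25, 0.18 and 0.28 in the 3 high rats. The 12 neuronal markers averaged -0.35, -0.18 and -0.11 there, and the 14 tricarboxylic acid cycle genes 0.08, 0.04 and 0.08. The 17 regulators of mitochondrial biogenesis went the other way, at -0.15, -0.07 and -0.07 there and 0.19 in HR_26. These libraries held 31.4, 38.6 and 47.3 M reads, against 54.6 M in HR_26. The shallowest libraries of bHR (HR_38, 31.1 M), bIR (IR_213, 36.7 M) and bLR (LR_44, 34.8 M) had member means of 0.01, -0.04 and -0.16. The deepest ones (HR_26, 54.6 M, IR_158, 66.6 M, and LR_20, 57.9 M) had means of -0.19, -0.07 and -0.12. With read total as a covariate, the median difference between bHR and bLR was -0.027, with 29 genes higher and 56 lower in bHR. As fitted it was 0.021, with 51 higher and 34 lower. RNA quality per rat was not analysed here, and the part of depth, cell composition or RNA quality in the shared movement was not tested. With the mean of the cytosolic ribosomal proteins as a covariate, the median standard error of the 85 genes between bHR and bLR was 0.058 in place of 0.106, with 0 called and a smallest limma adjusted p of 0.213 (Uqcr11). In the comparisons of bIR with bHR, bLR and the midpoint 0 were called as well. There limma gave an unadjusted p under 0.05 for 9, 13 and 15 genes, against 0, 7 and 3 as fitted. The shares over all genes with this covariate are not reported here.

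**Figure D3:**
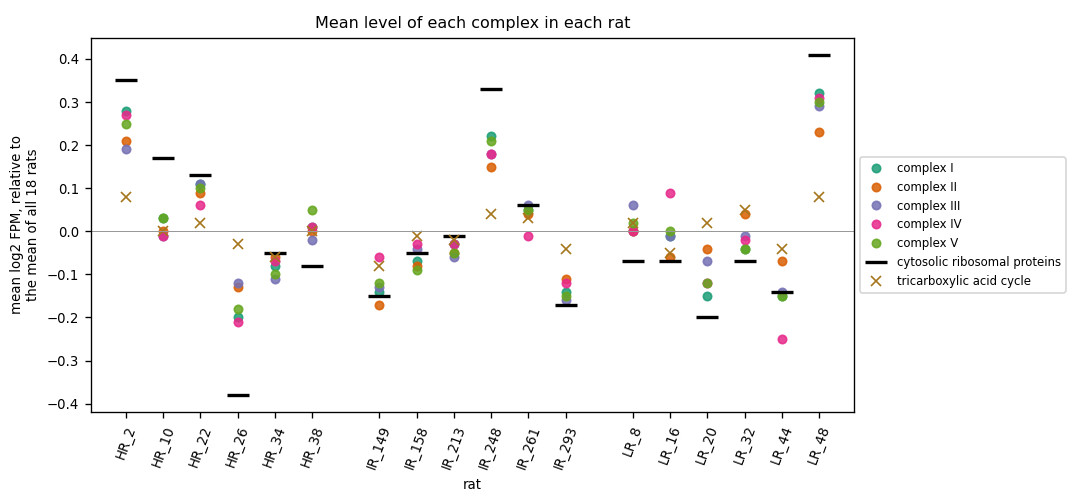
Mean log2 FPM of each complex in each of the 18 rats, relative to the mean over all rats, with cytosolic ribosomal proteins (black bars) and tricarboxylic acid cycle genes (crosses). The 5 complexes stay close to each other in each rat, highest in HR_2, IR_248 and LR_48, and the ribosomal protein genes move further in the same direction in these rats.

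**Figure D4:**
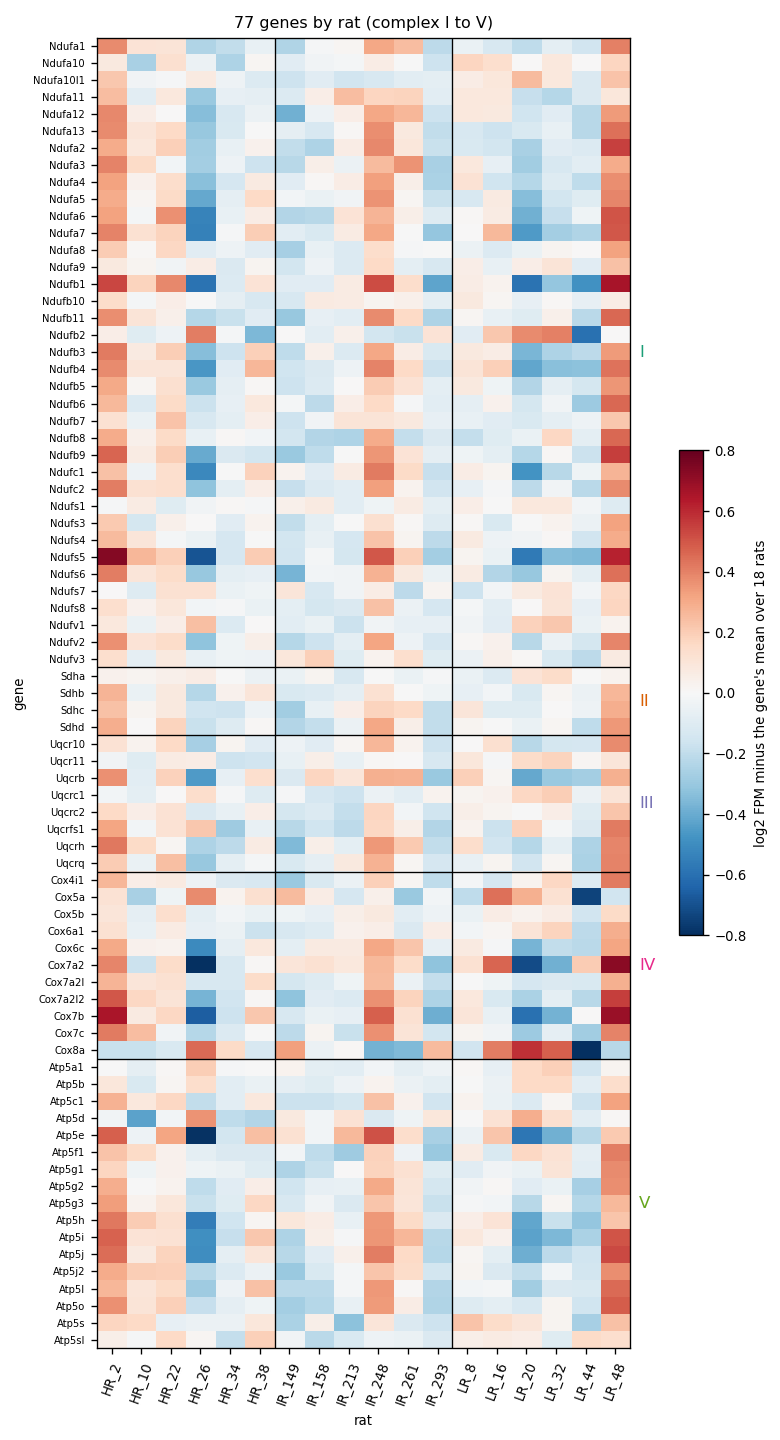
Level of 77 of the 78 members with a mean log2 level of at least 3 (rows, by complex) in each rat (columns, by line), as log2 FPM minus the mean of the gene over 18 rats. Columns HR_2, IR_248 and LR_48 are red in most rows, and Cox8a, Cox5a, Ndufb2 and Atp5d run against the other rows in several rats.

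Some members followed this pattern less closely. In 10 of the 78, namely Atp5a1, Atp5d, Atp5sl, Cox5a, Cox8a, Ndufb2, Ndufs1, Sdha, Uqcr11 and Uqcrc1, none of the 3 rats was the highest of its line. Cox8a, the general isoform of a small complex IV subunit, was the 1 member of the 78 below its line mean in all 3, while Sdha, Uqcr11 and Atp5sl were above it in all 3. Its highest values were 238 FPM in HR_26, 218 in IR_149 and 260.9 in LR_20, and its lowest was 93.0 in LR_44. Cox7b, another small complex IV subunit, showed the reverse in these rats, with 56.7 FPM in HR_26 and 59.2 in LR_20 against 141 in HR_2 and 145 in LR_48. Cox5a, a matrix-side subunit of complex IV, was also high in HR_26 (30.9 FPM) and low in LR_44 (14.2 FPM), and Ndufb2, a membrane-arm subunit of complex I, had 90.6 and 45.1 FPM in the same rats. These genes were picked out after their values were seen.

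The spread between rats is given by the role of the subunit as a description, with no test, since the roles were assigned after the values were seen. The median SD between rats of a line was 0.108 log2 units for the 10 redox or catalytic subunits and 0.226 for the 57 accessory or structural ones, beside 0.158 for all genes with a mean log2 level of at least 3. Ndufs1 and Sdha had the lowest values, 0.067 and 0.068, and Ndufv2 the highest of the 10, 0.211. Accessory subunits ran from 0.081 in Uqcr11 to 0.399 in Ndufs5 and in Cox8a, so the ranges of the 2 roles overlapped. Counting error was small beside these values, with an SD of 0.012 for Ndufb8 and 0.023 for Cox7b from their reads alone.

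**Figure D5:**
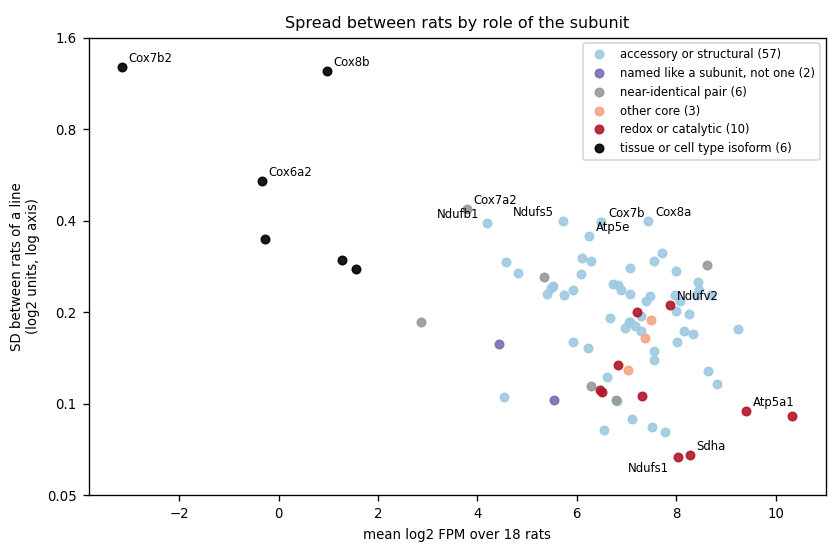
SD between rats of a line (log2 units, log axis) against mean log2 FPM for 84 of the 85 genes, coloured by role. The redox or catalytic subunits lie low, from 0.067 to 0.211, below most accessory subunits of like level, and the tissue isoforms lie at the upper left.

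Promoters were looked at because the members moved together. Nuclear genes of this machinery are known targets of the factors NRF1, GABPA (an ETS factor, also called NRF2) and YY1, and of the nuclear receptor ERRA with the coactivator encoded by Ppargc1a. RefSeq promoters of the GRCr8 assembly, 250 bases before to 50 after the start, were at hand for 73 of the 85 genes. Exact letters were sought on both strands, each motif by itself. The NRF1 core GCATGCGC was in 8 of the 73 (11%, against 2.66% of 27457 promoters), the ETS letters CCGGAAG in 20 (27.4% against 9.22%) and the YY1 letters AAGATGGC in 16 (21.9% against 3.44%). The ERRA letters AAGGTCA were in 11 (15.1% against 4.37%) and the SP1 box GGGCGG in 32 (43.8% against 34.9%). A match describes the letters and is not a bound site.

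The promoters printed here are those of Uqcrc1 and Ndufs1, among the steadiest members, of Atp5i, an accessory complex V subunit that was high in HR_2, IR_248 and LR_48 (292, 269 and 298 FPM) and low in HR_26 (150 FPM), and of the muscle isoform Cox8b. Each is written 5′ to 3′ along the gene, with NRF1, ETS and YY1 letters of either strand in capitals. They lie at chr8:118467973-118468272 on the plus strand, chr9:72073556-72073855 on the minus strand, chr14:1464610-1464909 on the plus strand and chr1:205408224-205408523 on the minus strand of GRCr8, a later assembly than the one the levels were counted on.
Uqcrc1: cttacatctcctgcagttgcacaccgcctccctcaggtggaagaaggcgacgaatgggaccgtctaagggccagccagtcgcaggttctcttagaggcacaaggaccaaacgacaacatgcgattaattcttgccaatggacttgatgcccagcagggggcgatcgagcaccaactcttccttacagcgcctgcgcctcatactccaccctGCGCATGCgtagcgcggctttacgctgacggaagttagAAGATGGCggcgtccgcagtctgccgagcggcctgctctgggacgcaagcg
Ndufs1: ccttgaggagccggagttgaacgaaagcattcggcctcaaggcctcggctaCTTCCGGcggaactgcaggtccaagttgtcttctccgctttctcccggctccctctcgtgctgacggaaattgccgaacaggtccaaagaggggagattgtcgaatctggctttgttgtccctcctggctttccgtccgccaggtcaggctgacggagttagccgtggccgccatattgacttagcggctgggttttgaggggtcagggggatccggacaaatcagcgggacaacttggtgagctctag
Atp5i: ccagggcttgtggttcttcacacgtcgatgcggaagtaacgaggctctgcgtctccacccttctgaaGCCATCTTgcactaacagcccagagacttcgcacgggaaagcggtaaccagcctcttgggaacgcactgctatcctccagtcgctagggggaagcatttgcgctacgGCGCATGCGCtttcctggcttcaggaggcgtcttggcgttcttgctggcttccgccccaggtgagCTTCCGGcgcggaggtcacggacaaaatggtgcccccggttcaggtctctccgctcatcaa
Cox8b: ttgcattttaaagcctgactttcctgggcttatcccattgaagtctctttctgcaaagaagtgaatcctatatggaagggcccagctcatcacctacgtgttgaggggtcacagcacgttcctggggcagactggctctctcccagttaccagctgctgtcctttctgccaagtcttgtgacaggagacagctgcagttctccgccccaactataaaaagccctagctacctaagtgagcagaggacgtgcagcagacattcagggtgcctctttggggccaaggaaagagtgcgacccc
Uqcrc1 holds an NRF1 match and a YY1 match that spans the start, and Ndufs1 a single ETS match. Atp5i holds all 3 kinds, with the NRF1 letters on both strands of 1 overlapping run. Cox8b holds none of the 3 in this window. The printed promoters were picked by hand, and Cox8b was not alone in this. Among the members with a promoter at hand, Sdha, Atp5b, Ndufv1 and Uqcrfs1 also held none of the 3 kinds. Whether such letters go with the shared movement of the members, or with their spread between rats, was not tested.

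The regulators themselves gave 0 of 17 called between bHR and bLR (all genes: 0.445%), with 11 higher and 6 lower in bHR and a median of 0.021. Ppargc1a was at 22.9 ± 1.93 FPM (bHR), 21.4 ± 2.44 FPM (bIR) and 20.4 ± 2.74 FPM (bLR) (SD, n = 6), a difference of 0.17 (SE 0.09, limma adjusted p = 0.602). Gabpa was at 36.2 ± 1.56, 35.9 ± 2.57 and 33.1 ± 1.51 FPM, a difference of 0.13 (SE 0.06, unadjusted p = 0.0475, limma adjusted p = 0.529). Nrf1 differed by -0.11 (SE 0.10), Esrra by 0.05 (SE 0.09) and Tfam, which packages and transcribes mitochondrial DNA, by 0.04 (SE 0.09).

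Of the components that the symbols do not catch, cytochrome c (Cycs), the carrier between complexes III and IV, stood apart. Cycs ran from 52.7 to 68.2 FPM in bHR (median 61.5), from 62.6 to 104 in bIR (median 78.7) and from 56.0 to 112 in bLR (median 93.3). The bLR rats other than LR_16 (56.0 FPM) lay above every bHR rat. The difference between bHR and bLR was -0.51 (SE 0.13, unadjusted p = 7.54e-04, limma adjusted p = 0.0944), short of the threshold. Without LR_16 it was -0.64 with a limma adjusted p of 0.00505, with the ribosomal protein covariate -0.53 with 0.0410, and in the other 32 alternatives its adjusted p ran from 0.0659 to 0.288. Rat genomes hold many processed copies of Cycs, so its level is uncertain where reads could be shared. Cyc1, the heme subunit of complex III that hands electrons to cytochrome c, differed by -0.10 (SE 0.06) and Ndufab1, the acyl carrier subunit of complex I, by 0.02 (SE 0.11). Usmg5, a small complex V subunit, differed by 0.16 (SE 0.17).

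The wider mitochondrial lists gave 0 calls between bHR and bLR: 0 of 39 assembly factors (median -0.019, 16 higher and 23 lower in bHR), 0 of 14 tricarboxylic acid cycle genes (median -0.025, 5 and 9), 0 of 20 membrane, import and transport genes (median -0.019, 8 and 12) and 0 of 76 mitochondrial ribosomal proteins (median 0.005, 39 and 37). The smallest p values were those of Mrpl43, a mitochondrial ribosomal protein (0.32, unadjusted p = 0.00143, limma adjusted p = 0.132), Idh2, the NADP-dependent isocitrate dehydrogenase (0.28, limma adjusted p = 0.217), and the import receptor Tomm70a (-0.24, limma adjusted p = 0.241). Of 16 glycolysis genes 0 were called, with 2 higher and 14 lower in bHR and a median of -0.098, Gapdh at -0.19 and Eno1 at -0.30 among them. Of 105 cytosolic ribosomal protein genes 1 was called, Rpl17, lower in bHR with a difference of -1.60 (limma adjusted p = 0.00296). Over all genes 0.445% were called between bHR and bLR, so 0 or 1 call in lists of these sizes is near that share. Relative to the midpoint, bIR was lower for 61 of 76 mitochondrial ribosomal proteins, 27 of 39 assembly factors and 15 of 20 membrane and import genes. Of these genes 0 were called. It was lower for 55 of 105 cytosolic ribosomal proteins, and over all genes for 9970 of 20909.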

How the data were processed

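Whole hippocampus of 18 adult male rats (6 per line) was sequenced as stranded mRNA libraries, per the labels' protocols. Per the series' design text, the authors used Subread with the Rnor_6.0 build and featureCounts with Ensembl 81, dropped genes short of 10 counts in at least 4 samples or without a symbol, and deposited log2 fragments per M reads from voom (R 3.2.2 in the submitters' processing notes). Other tool versions, and the counting of near-identical copies, are not given in the sources at hand.

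The deposited log2 values were analysed as they stand. With an offset of 0.5 reads, 100% of the 376362 values came within 0.02 of whole reads, so read numbers were recovered for depth and for the voom alternative. Levels in FPM are 2 to the power of the log2 value.

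Groups came from sample titles. limma 3.58.1 in R 4.3.3 was fitted to all 20909 genes with 3 line means and a variance trend, and Benjamini-Hochberg adjustment was made over all genes within each contrast (two-sided, threshold 0.05, 15 residual degrees of freedom before moderation). Intervals are 95% intervals of that model. P-values weigh a difference of line means against the spread between rats, which limma moderates over all genes.

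Members and lists (8 pathway lists, 12 marker lists) were chosen with earlier results of these data known. Named members were those called, not overlapping, or of smallest unadjusted p (8 each way between bHR and bLR, 4 each way elsewhere), the 3 most and 3 least variable, the isoform sets, complex II and, of each pathway list, up to 2 each way of smallest p beside set regulators and carriers. Genes picked after seeing values are said to be so. Single values of 1 member, which stays in the counts over 85 and 78 genes, are not reported here. The fit was tested on simulated reads.

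Alternatives were 2 filters on low values, median centring, a trimmed mean of log ratios, quantile normalization, no trend, a robust trend, array weights, an offset of 2 reads, voom weights, read total or choroid plexus markers as a covariate, only the 12 rats compared, the 4 rats with a log2 Ttr level above 11 left out, and each rat left out. Added after seeing the data were the cytosolic ribosomal protein mean as a covariate and leaving out HR_2, IR_248 and LR_48.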

Additional observations from a re-analysis of the deposited data

Results flagged for a closer look

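Rats whose level stood apart from the other 5 of their line were sought in 123 groups of 6 by Dixon's ratio at its 95% critical value, and 10 were found; chance alone flags about 1 in 20. Of these, 6 fell on rat LR_48 and 2 on IR_248, the rats already described as high for most members. These flags rest on the same values, so they are no separate evidence. The mean of all members was 0.31 in LR_48 relative to all rats, and that of complex I was 0.32. LR_48 was also far above the other bLR rats for Atp5g1 (97.5 FPM), Cox7a2l (316 FPM), Sdhb (136 FPM) and Sdhd (230 FPM). IR_248 stood above the other bIR rats for the mean of complex IV (0.18) and for Cox7a2l (308 FPM). HR_2 stood above the other bHR rats for Cox6a2 (1.75 FPM), and IR_293 below the other bIR rats for Cox7a2 (11 FPM).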

How the results depend on the processing

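No member was called in any contrast under the alternatives run (34 for each pair of lines, 33 for the midpoint), which tested all 85 but for the filters on low values (82 with a mean log2 level of at least 0, 84 with 10 or more reads in all 18 libraries). Median differences ran from -0.027 to 0.082 between bHR and bLR and from -0.008 to 0.148 for bHR against bIR. They ran from -0.055 to 0.117 for bLR against bIR and from -0.129 to 0.000 for bIR against the midpoint. The SD of the member mean between single rats of a line was 0.15 log2 units, which is not the standard error of these differences. The values 0.148, 0.117 and -0.129 came without the 4 rats of highest Ttr (as fitted: 0.046, 0.018 and -0.032). There, 76 genes were higher in bHR than in bIR, 75 higher in bLR than in bIR and 74 below the midpoint. The sign of the median differences turned or reached 0 in 4, 1, 4 and 1 alternatives. Between bHR and bLR these were read total as a covariate (-0.027), the ribosomal protein covariate (-0.006), and leaving out HR_2 (-0.020) or LR_44 (-0.006). Between bHR and bIR it was leaving out HR_2 (-0.008). Between bLR and bIR they were leaving out LR_48 (-0.055), IR_149 (-0.001) or IR_293 (-0.001), and HR_2, IR_248 and LR_48 together (0.000). Of 41 named differences 35 kept their sign throughout. Without the 4 rats of highest Ttr, Cox8b was 0.64 for bHR against bIR, 0.30 for bLR against bIR and -0.47 against the midpoint, and Ndufa11 was 0.02, 0.00 and -0.01. With choroid plexus markers as a covariate Cox8b was 0.12 between bHR and bIR and -0.32 between bLR and bIR. The causes were not tested. No paired analysis was possible because no rat number is shared between lines. Reads were few for some isoforms of complex IV, at 0 to 17 for Cox7b2, yet the SD between rats exceeded that of counting in each (Cox7b2 1.28 against 0.578, Cox6a2 0.539 against 0.241, Cox8b 1.24 against 0.124).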
